A study of Mus musculus with 2 samples.

Results

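In sorted lung cells from mice with and without *Pclaf*, a set of droplets held a large share of *Sftpc*, the surfactant protein C mRNA that marks alveolar type 2 (AT2) cells, and next to no *Malat1*, a long noncoding RNA that stays in the nucleus. A droplet is read through its cell barcode, and each captured RNA molecule through a unique molecular identifier (UMI). Kept barcodes had above 200 but below 5000 genes detected, and mitochondrial UMIs under 20%. A barcode was called *Sftpc*-high with at least 5% of its UMIs from *Sftpc*, at least 1000 UMIs and 0 UMIs of the immune gene *Ptprc* and the endothelial gene *Pecam1*. *Sftpc*-high barcodes with fewer than 10 *Malat1* UMIs per 10000 UMIs are called nuclear-RNA-poor here, and those with 30 or more are called *Malat1*-rich. The nuclear-RNA-poor barcodes numbered 693, with 68 in *Pclaf* WT and 625 in *Pclaf* KO, of 45824 kept barcodes and 47841 in all. The barcodes were chosen by their own *Sftpc*, *Malat1*, *Ptprc* and *Pecam1* UMIs, so the values of these genes, and the comparison itself, are a description only.

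Both libraries came from lungs of mice aged 8 to 10 weeks, taken 7 days after bleomycin was instilled at 1.35 U/kg according to the deposited design, a dose that the sources do not give alike. Bleomycin is a drug used to injure the alveoli. The WT mice carried intact *Pclaf*, a gene of proliferating cells whose protein binds the replication clamp PCNA, and the KO mice are labelled *Pclaf* KO, with no Cre or transgene named for these libraries. Cells negative for Cd31 and Cd45 and positive for Epcam were sorted, and 1 droplet library was made per genotype, with the number of mice behind each not given in the sources used here. Since each genotype is represented by 1 library, no test was run, and every interval below is a 95% interval of counting error only. Each value was therefore taken within a library, nuclear-RNA-poor over *Malat1*-rich barcodes, and the libraries were read as 2 separate cases.

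AT2 cells secrete surfactant from lamellar bodies and serve as progenitors of the thin AT1 cells after injury. A mature mRNA is spliced, exported through nuclear pores and translated in the cytoplasm, whereas RNAs such as *Malat1* in nuclear speckles, *Neat1* in paraspeckles and *Xist* on the inactive X chromosome remain with the nucleus. Unspliced precursors and transcripts with detained introns are nuclear as well. Mitochondrial transcripts are made and kept inside the organelle, while most subunits of the respiratory chain are encoded in the nucleus and translated on cytosolic ribosomes.

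The libraries differed before any comparison. *Sftpc*-high barcodes made up 554 of 30187 kept WT barcodes (1.84%, Clopper-Pearson 1.69 to 1.99) and 6880 of 15637 kept KO barcodes (44.0%, 43.2 to 44.8). About 16000 cells per group were loaded according to the labels, against 30669 barcodes in WT and 17172 in KO. In spite of the gate, 5675 kept WT barcodes with at least 1000 UMIs and *Sftpc* below 5% carried at least 1% of their UMIs in endothelial markers, against 311 in KO. *Pclaf* itself was at 39.3 CPM (UMIs scaled to a sum of 1000000) over all kept WT barcodes and at 5.19 CPM, from 529 UMIs, over all kept KO barcodes. The part of the gene removed in the KO mice is not given in the sources used here, so reads from a remaining 3' end cannot be told apart from expression of an intact gene. The libraries shared 163 barcode sequences, 4 of them on nuclear-RNA-poor barcodes and 0 on barcodes that were nuclear-RNA-poor in both.

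Nuclear-RNA-poor barcodes formed 12.3% (9.66 to 15.3) of *Sftpc*-high barcodes in WT and 9.08% (8.42 to 9.79) in KO, and whether the genotypes differ was not tested. With at least 3000 UMIs per barcode the shares were 3.11% and 5.06%, so which library had the larger share depended on that limit. *Malat1*-rich barcodes numbered 423 in WT and 5576 in KO, and 63 and 679 lay between the limits. No gap separated the sets at the limit. In WT the 5 barcodes just inside held 8.37 to 9.69 *Malat1* UMIs per 10000 and the 5 just outside 10.9 to 12.1, and in KO the values were 9.72 to 9.99 and 10.1 to 10.6. *Malat1* was at 0 UMIs in 45 of the 68 WT barcodes (66.2%) and in 347 of the 625 KO barcodes (55.5%). The same *Malat1* limit was met by barcodes of other kinds, named here by marker UMIs of at least 1% with *Sftpc* below 5% and at least 1000 UMIs. For this naming *Lyz2*, *Cd74*, *Spp1*, *Gsn* and *Igkc* were left out of the marker lists. In WT it was met by 2.90% of lymphocyte, 6.72% of ciliated, 11.4% of endothelial, 15.7% of macrophage, 23.1% of club and goblet and 24.3% of mesenchymal barcodes. In KO it was met by 6.38% of ciliated, 8.60% of mesenchymal, 9.97% of endothelial, 11.9% of 42 macrophage and 26.1% of club and goblet barcodes, and by 0 of 10 lymphocyte barcodes.

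The nuclear-RNA-poor barcodes were shallow and simple. Their median was 1772.5 UMIs in WT and 3071 in KO, against 5221 and 7499.5 in *Malat1*-rich barcodes, and 54 of 68 and 303 of 625 held fewer than 3000 UMIs. When each barcode was thinned to 1000 UMIs, the median number of genes was 459.5 against 565 in WT and 371 against 525 in KO (701 against 1991 and 790 against 2366 before thinning). The 10 most abundant genes took 34.5% of their UMIs in WT and 40.9% in KO, against 27.8% and 32.0%. *Epcam*, a marker of epithelial cells, was at 245 CPM in nuclear-RNA-poor and 175 CPM in *Malat1*-rich barcodes in WT and at 166 and 170.1 CPM in KO. *Sftpc*, which chose them, had a median of 17.4% in WT and 24.3% in KO, against 13.2% and 15.2%. The median mitochondrial share was lower, at 4.43% against 6.02% in WT and 1.77% against 6.30% in KO.

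**Figure D1:**
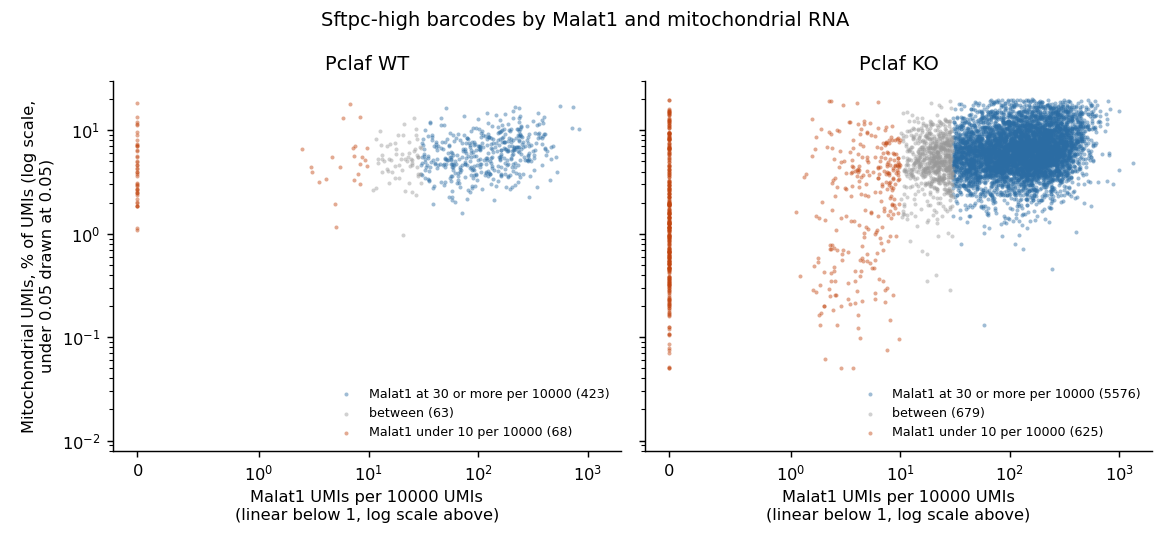
Each point is 1 *Sftpc*-high barcode, with *Malat1* UMIs per 10000 UMIs on the horizontal axis (linear below 1, log scale above) and the mitochondrial share of UMIs in percent on the vertical log axis, for *Pclaf* WT and *Pclaf* KO. Red points are nuclear-RNA-poor, grey points lie between the limits and blue points are *Malat1*-rich, and in KO 228 of the 625 red points fall below 1% mitochondrial UMIs.

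Nuclear noncoding RNAs other than *Malat1* were lower in both libraries. *Neat1*, the scaffold of paraspeckles (chr19:5824708-5845478, GRCm38, from the GENCODE M21 annotation), stood at 155 CPM in nuclear-RNA-poor and 1044 CPM in *Malat1*-rich WT barcodes, and at 83.1 and 772 CPM in KO. Its log2 ratio was −2.75 (−3.40 to −2.17) in WT and −3.21 (−3.42 to −3.01) in KO. Per 10000 UMIs, the median *Neat1* value was 0 in nuclear-RNA-poor barcodes of both libraries, with a highest value of 9.25 in WT and 14.8 in KO, against medians of 8.79 and 6.66 and highest values of 44.2 and 70.2 in *Malat1*-rich barcodes. The sets overlapped, and *Neat1* was at 0 UMIs in 56 of 68 nuclear-RNA-poor barcodes in WT and 518 of 625 in KO, against 23 of 423 and 266 of 5576. At an equal 1000 UMIs per barcode, *Neat1* was seen in 10.3% against 60.3% of barcodes in WT and in 4.16% against 50.1% in KO.

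A gene was counted as higher or lower with a log2 ratio of at least 1 in size and the same sign in both libraries, among 5941 genes with at least 50 UMIs over the 2 sets in each library. Of these, 52 were higher (0.875%) and 1907 were lower (32.1%). Most UMIs came from the larger *Malat1*-rich sets, so genes abundant only in nuclear-RNA-poor barcodes could fail that limit. *Ube2c*, with 28 against 12 UMIs in WT, did. At matched UMIs 58 of 467 genes were higher (12.4%) and 66 lower (14.1%), so these shares depend on the barcodes and genes compared. The 1907 lower genes include 232 at 0 UMIs in the nuclear-RNA-poor WT barcodes. Of these 232, 160 cannot be shown to pass 2-fold in WT with a floor of 3 counts over the set. Without these 160 the number is 1747. Over all tested genes, 18.5% were above 0 in both libraries and 65.0% below. The median log2 ratio was −0.60 in WT and −1.06 in KO, but 0.38 and 0.48 over the 467 genes tested at matched UMIs. Those 467 are only the genes that kept enough UMIs in the smaller sets. The gene set and the matching thus changed together, and their parts in the change of median were not told apart. Where list medians are set against those of all genes below, the unmatched sets are meant unless stated. Of 14 nuclear noncoding RNAs found here, *Malat1* among them, 7 besides *Malat1* had enough UMIs. Of these, 6 were lower and 0 higher, with medians of −2.71 and −3.01. *Xist* had log2 ratios of −2.71 in WT and −2.79 in KO. It stood at 381 and 512 CPM in *Malat1*-rich barcodes, which goes against the male sex that the study's methods give for its mice, since male cells normally do not make this RNA. *Airn*, the antisense RNA of the imprinted *Igf2r* locus, was at −3.66 and −3.01, and *Kcnq1ot1*, which silences another imprinted cluster, at −2.22 and −3.94. *Snhg11* was at −2.77 and −3.42, and *Ftx*, next to *Xist*, at −1.72 and −2.92. *Tug1*, which is also found in the cytoplasm, was at −1.36 and −0.97 and was not counted as lower. Summed without *Malat1*, the list held 291 against 1829 CPM in WT and 221 against 1706 CPM in KO, a log2 ratio of −2.65 (−3.11 to −2.23) and −2.95 (−3.07 to −2.82). The sums rest on 45 UMIs in the WT and 530 UMIs in the KO nuclear-RNA-poor barcodes.

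The other nuclear RNAs were lower in each lower bin of *Malat1*, above the limit as well as below it. In KO the list without *Malat1* held 1809 CPM at 60 or more *Malat1* UMIs per 10000, 1222 CPM at 30 to 60, 983 CPM at 20 to 30, 822 CPM at 10 to 20, 464 CPM at 5 to 10, 248 CPM at 2 to 5 and 71.3 CPM below 2. In WT the series began at 1955 CPM and reached 472 CPM at 2 to 5, with 6 UMIs in 45 barcodes below 2. Ribosomal protein genes ran the other way in KO, from 63369 CPM to 139346 CPM over the same bins, each higher than the one before. The split was also made on *Neat1*. Among *Sftpc*-high barcodes with at least 5000 UMIs, those without a *Neat1* UMI held 6631 CPM of *Malat1* in WT (n = 13) and 6068 CPM in KO (n = 305), against 14902 CPM (n = 188) and 16087 CPM (n = 3032) in those with 5 or more *Neat1* UMIs per 10000.

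**Figure D2:**
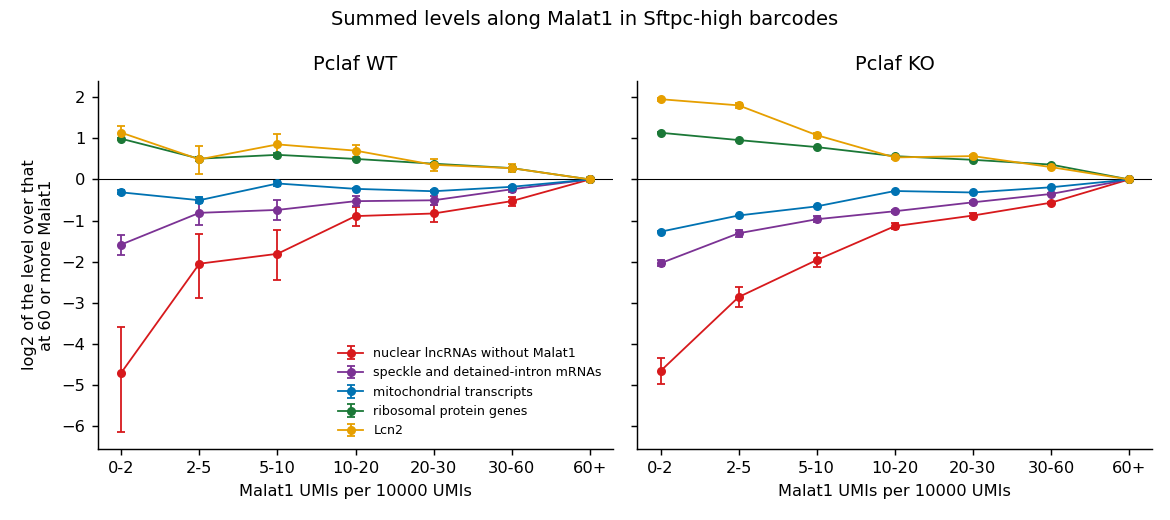
Summed level of 4 gene lists and of *Lcn2* in 7 bins of *Malat1* UMIs per 10000 UMIs, as the log2 of its ratio to the bin at 60 or more, with bars for the 95% counting interval, in *Pclaf* WT and *Pclaf* KO. Nuclear lncRNAs without *Malat1* are lowest in the lowest bin of both libraries (6 UMIs in WT, 71.3 CPM in KO), where ribosomal protein genes and *Lcn2* are highest.

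Levels in CPM depend on the total, and nuclear-RNA-poor barcodes held fewer UMIs of nearly everything. Their mean UMI count was 41.0% of that of *Malat1*-rich barcodes in WT and 48.0% in KO, and 15 of the 5941 genes (0.252%) had a higher mean count per barcode in both libraries. Read as mean UMIs per barcode, the RNA groups fell into an order. Nuclear lncRNAs without *Malat1* stood at 6.52% of the *Malat1*-rich mean in WT and 6.23% in KO. The mRNAs of nuclear speckle proteins and splicing factors, a list rich in detained introns, stood at 19.3% and 17.7%, and transcription factors of the lung epithelium at 23.7% and 18.6%. Mitochondrial transcripts stood at 34.5% and 24.8%. *Sftpc* stood at 54.2% and 73.6%, ribosomal protein mRNAs at 68.3% and 91.9%, and mRNAs of the respiratory chain that are encoded in the nucleus at 68.9% and 97.8%. Fewer RNA molecules in a cell and fewer captured from it cannot be told apart in these counts.

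All 72 ribosomal protein genes had a log2 ratio above 0 in both libraries. Their median was 0.73 in WT and 0.94 in KO, close to the 0.67 and 0.90 of 275 other tested genes with transcripts below 1000 bases. These 275 are protein-coding and leave out ribosomal protein and mitochondrial genes. Of the 72, 2 were counted as higher (2.78%, against 0.875% of all tested genes), among them *Rpl41* (1.02 and 1.21). *Rps19*, the member with the most UMIs, held 3346 against 2008 CPM in WT and 3711 against 2024 CPM in KO. Summed, the list held 119220 against 71610 CPM in WT and 127277 against 66532 CPM in KO. Cytosolic translation factors, which work with these ribosomes, had medians of 0.51 and 0.53 with 0 of 23 past 2-fold, against 0.875% of all tested genes higher and 32.1% lower. *Tpt1* was at 0.59 and 0.86 and *Eef1a1* at 0.51 and 0.25.

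Of 78 subunit genes encoded in the nucleus, 69 were above 0 in both libraries, 8 were counted as higher (10.3%, against 0.875% of all tested genes and 9.45% of the same 275 with transcripts below 1000 bases) and 0 as lower, with medians of 0.74 and 1.03 against 0.67 and 0.90 over those 275. The 275 include the short members of this list. *Ndufb6* and *Ndufa5* of complex I had log2 ratios of 1.31 and 1.38 in WT and 1.24 and 1.18 in KO. *Cox7a2* of complex IV rose from 330 to 672 CPM in WT and from 294 to 702 CPM in KO, and *Atp5k* of the ATP synthase from 161 to 329 CPM and from 152 to 347 CPM. *Cox8a*, with the most UMIs, was at 0.94 and 1.33. The members below 0 in both libraries were *Sdha*, the flavoprotein of complex II (−1.16 and −0.87), and *Atp5a1* (−0.03 and −0.02). Of the 13 transcripts made in mitochondria, 0 were above 0 in both libraries and 12 were below, with medians of −0.27 and −1.07. These medians moved with the setting, to −0.80 and −1.48 at matched UMIs, to −0.11 and −0.31 with TMM factors, and in KO to −0.56 among barcodes with at least 1% mitochondrial UMIs. *mt-Co1* went from 10936 to 9094 CPM in WT and from 11419 to 5527 CPM in KO, and *mt-Atp6* from 10778 to 10024 CPM and from 11469 to 6300 CPM. The exception was *mt-Atp8*, at 0.18 in WT and −1.16 in KO. Complex IV thus had *Cox7a2* and *Cox8a* above and *mt-Co1* below their *Malat1*-rich levels in the same barcodes.

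**Figure D3:**
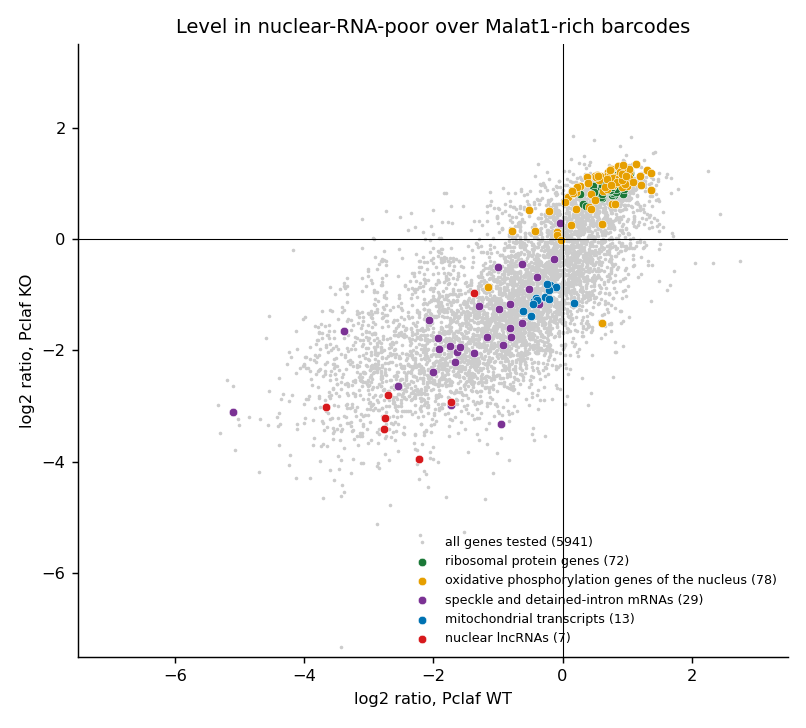
Log2 ratio of CPM, nuclear-RNA-poor over *Malat1*-rich barcodes, in *Pclaf* WT (horizontal) and *Pclaf* KO (vertical), for the 5941 genes tested (grey) and 5 gene lists (colors, with the number of genes in each). All 72 ribosomal protein genes lie in the upper right quadrant and all 7 nuclear lncRNAs in the lower left.

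Among the 5941 genes, 83.6% had the same sign in both libraries, and log2 ratios correlated across genes with r = 0.73, which describes genes of 2 libraries and not independent replicates. Genes past 2-fold in opposite directions numbered 2.

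The length of a gene on the chromosome went with its log2 ratio. Ribosomal protein and mitochondrial genes were left out here. Protein-coding genes that span less than 10 kb had medians of 0.35 in WT and 0.42 in KO, and 2.05% of 1120 were lower in both libraries. The share counted as lower was 10.9% of 1581 genes at 10 to 30 kb, 42.9% of 2001 at 30 to 100 kb, 72.5% of 891 at 100 to 300 kb and 86.1% of 202 at 300 kb or more, where the medians were −2.31 and −3.01. Mature transcripts of long genes tend to be long as well, so the same was done within 1 class of transcript length. For transcripts of at least 1000 and below 3000 bases the share counted as lower was 0.845% of 710 genes below 10 kb and 81.0% of 21 genes at 300 kb or more, and for those of at least 3000 and below 6000 bases it was 9.09% of 176 and 88.2% of 76. Conversely, within spans of 10 to 30 kb the median in KO went from 0.79 for transcripts below 1000 bases to −1.15 for those of 6000 bases or more. Whether reads in introns were counted is not given in the sources used here, and the part of unspliced RNA in this relation was not tested.

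**Figure D4:**
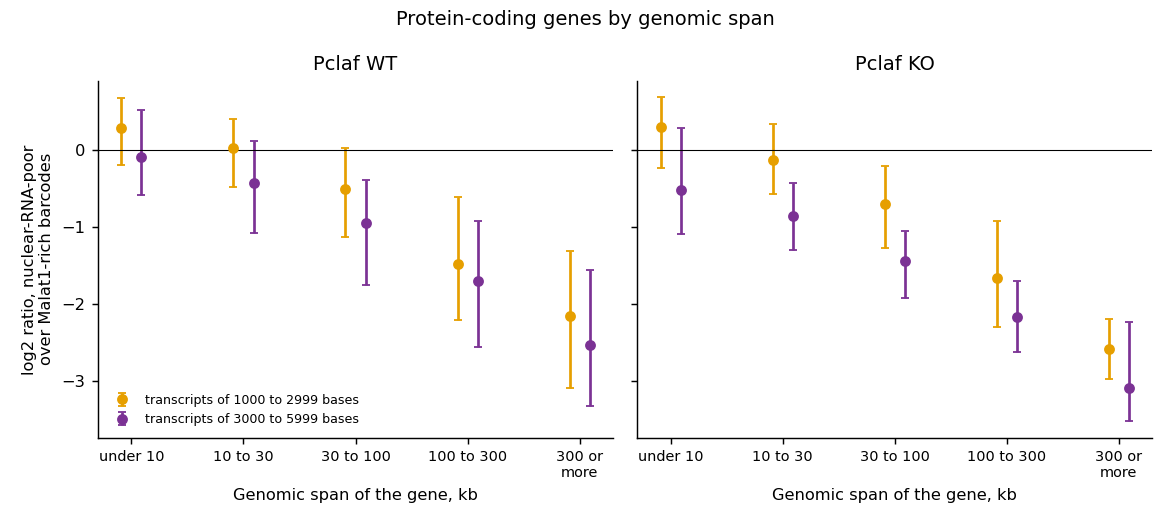
Median log2 ratio with quartiles (bars) of protein-coding genes in 5 classes of genomic span in kb, separately for transcripts of at least 1000 and below 3000 bases (orange) and of at least 3000 and below 6000 bases (purple), in *Pclaf* WT and *Pclaf* KO. Ribosomal protein and mitochondrial genes are left out. In both length classes and both libraries the median falls with each step in span, in KO to −2.58 and −3.08 at 300 kb or more.

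Among tested genes, the 15 with the lowest fitted log2 ratios in both libraries spanned 53.0 to 1223 kb, with a median of 443 kb. The median was 5.21 kb for the 15 highest and 32.6 kb for all tested. Of the 15 lowest, 5 were at 0 UMIs in the nuclear-RNA-poor WT barcodes and were placed there with 0.5 UMIs added. *Mecom*, a zinc finger transcription factor (chr3:29951296-30548008, minus strand), held 103 CPM from 16 UMIs against 1396 CPM in WT and 87.7 CPM from 210 UMIs against 1386 CPM in KO, log2 ratios of −3.76 (−4.56 to −3.05) and −3.98 (−4.19 to −3.79). It was seen in 4.96% of nuclear-RNA-poor and 69.6% of *Malat1*-rich KO barcodes at 1000 UMIs each, and its mean count per barcode was 3.04% of the *Malat1*-rich mean in both libraries. *Ror1*, a receptor of Wnt5a, had log2 ratios of −4.13 and −4.29, and *Nr3c2*, the mineralocorticoid receptor, −3.92 and −4.29. *Wwox*, *Auts2* and *Park2*, which lie in some of the longest genes of the genome, were at −3.87 and −3.69, −4.40 and −3.70, and −3.71 and −4.65. *Adamtsl1*, *Shroom4*, *Fbxl17* and the antisense transcript *Gm20629*, whose reads may belong to an overlapping gene, had log2 ratios between −4.22 and −3.60 in WT and between −4.15 and −3.57 in KO.

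*Kctd8*, *Prkce*, *Ints6l*, *Syn3* and *9130011E15Rik* had 0 UMIs in the nuclear-RNA-poor WT barcodes. With a floor of 3 counts over that set, or 19.4 CPM, *Ints6l* was at least 5.59-fold lower, *Kctd8* at least 4.33-fold and *Prkce*, a protein kinase C, at least 3.12-fold. The bounds for *Syn3* and *9130011E15Rik* were 2.18-fold and 2.09-fold. In KO, where UMIs were counted, the log2 ratios of the 5 genes were between −4.18 and −3.67.

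Of 29 speckle and splicing genes, 15 were lower (51.7%, against 32.1% of all tested genes) and 0 higher, with medians of −1.17 and −1.75. *Son*, a core protein of speckles, fell from 286 to 90.4 CPM in WT and from 352 to 76.4 CPM in KO. *Srrm2*, its partner, was at −1.59 and −1.93, *Luc7l2* at −2.55 and −2.64, *Ddx17* at −1.75 and −1.91 and *Nktr* at −1.73 and −2.99. *Pnisr* had 0 UMIs against 259 in WT, at least 5.70-fold lower, and −3.10 in KO. The SR protein genes *Srsf3* (−0.04 and 0.29) and *Srsf5* (−0.40 and −0.69) did not pass 2-fold. Of 19 lung transcription factors, 5 were lower (26.3%, under the 32.1% of all tested genes), with medians of −0.78 and −1.10. *Foxp2* went from 255 CPM to 6.46 CPM in WT, the latter from 1 UMI, and from 270.5 to 24.2 CPM in KO, and *Foxp1* was at −1.89 and −2.50. *Grhl2*, *Klf5* and *Foxa1* were at −1.74, −1.09 and −1.05 in WT and −2.58, −1.35 and −1.09 in KO. *Nkx2-1*, the lineage factor of lung epithelium, was at −0.74 and −1.10, *Etv5*, which maintains AT2 cells, at −0.59 and −1.68, and *Id2* at 0.10 and −0.34. These 2 medians lay close to those of all genes, 0.17 and 0.04 below.

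Of 27 chromatin genes, 12 were lower (44.4%, against 32.1% of all tested genes), and the medians lay 0.06 and 0.16 below those of all genes. The lower members included the enzymes and remodelers *Atrx*, *Kmt2a*, *Kmt2d*, *Kmt2e*, *Setd2*, *Bptf*, *Chd4*, *Chd9*, *Smarca4*, *Top2b* and the cofactor *Ankrd11*. *Kmt2e*, for example, was at −2.04 and −2.40. The 2 higher members (7.41%, against 0.875% of all tested genes) were the histone variant gene *H2afz* (1.06 and 1.83) and *Hmgn2* (1.03 and 1.33). *H3f3a* was at 0.61 and 0.70. The list's summed log2 ratio was 0.04 in WT and 0.15 in KO, and its medians were −0.66 and −1.21, so sum and median differ in sign. Immediate early genes, whose mRNAs are short-lived, had medians of −0.42 and −0.91, which lay 0.18 and 0.14 above those of all genes, with 0 of 21 past 2-fold in both libraries against 32.1% of all tested genes lower. *Fos* was at −0.18 and −0.91 and *Jun* at −0.59 and −1.27. Of 23 cholesterol and fatty acid synthesis genes, 8 were lower (34.8%, near the 32.1% of all tested genes) and 0 higher, and the medians lay 0.05 below those of all genes in both libraries. The lower members included *Acaca*, acetyl-CoA carboxylase (−1.50 and −2.56), and *Srebf2*, a transcription factor that drives cholesterol synthesis (−1.09 and −1.93). *Scd1*, with the most UMIs, was at −0.29 and −0.59.

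Among genes with enough UMIs, the 15 that were highest in both libraries were small. Some cycling markers below that limit had larger ratios, such as *Birc5*, with a transcript of 3334 bases (3.56 and 3.47). *Stmn1*, a tubulin-binding protein of dividing cells, held 491 against 185 CPM in WT and 512 against 175 CPM in KO, log2 ratios of 1.41 (1.04 to 1.76) and 1.55 (1.46 to 1.63), although 31.6% of its WT UMIs came from 1 barcode. *Apoc1*, an apolipoprotein, held 614 against 260 CPM and 545 against 240 CPM, and *Atpif1*, the inhibitor of the mitochondrial ATPase, 633 against 280 CPM and 594 against 240 CPM. *Ndufb6*, *Ndufa5*, *Cox20* and *Cox6b2* belong to the respiratory chain or its assembly. *Lsm4* is a subunit of an RNA-binding ring, and *Bloc1s1* and *Ubl4a* are small proteins of organelle traffic and membrane protein insertion. These 4 subunit and assembly genes and these 3 others had log2 ratios of 1.13 to 1.39 in WT and 1.18 to 1.35 in KO. *Gm10076* (1.26 and 1.42) and *Gm11808* (1.62 and 1.16) are unnamed gene models of 384 and 504 bases, whose reads can be shared with gene copies, and are uncertain. *Chil3*, *Ccl6* and *Cldn5* rest on few UMIs and few barcodes. *Chil3*, of macrophages, had 11 UMIs on 5 barcodes in WT, 7 of them on 1 barcode, and 20 UMIs on 10 barcodes in KO. *Ccl6*, a chemokine of myeloid cells, had 26 and 38 UMIs, and *Cldn5*, of endothelial junctions, had 8 and 11. Their part in the result of any other gene was not tested.

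Genes of AT2 cells other than *Sftpc*, which the rule used, lay on both sides of 0. *Sftpa1* held 18783 against 16207 CPM in WT and 25279 against 18299 CPM in KO. *Cxcl15*, a chemokine of lung epithelium, was at 0.29 and 0.54, *Napsa*, which processes surfactant protein precursors, at 0.19 and 0.23, *Sftpb* at −0.05 and −0.25 and *Sftpd* at −0.07 and 0.18. Other genes of AT2 cells had log2 ratios below 0. *Slc34a2*, the phosphate transporter of AT2 cells, held 3152 against 4702 CPM in WT (−0.58, −0.71 to −0.45) and 1848 against 4329 CPM in KO (−1.23, −1.27 to −1.19). *Lamp3*, a membrane protein of lamellar bodies, was at −0.47 and −0.94. *Abca3*, the lipid pump of lamellar bodies, was at −1.01 and −1.54, *Hc* at −1.35 and −1.34 and *Ppp1r14c* at −1.38 and −1.24. These were the 3 of 20 genes counted as lower (15%, against 32.1% of all tested genes) in the list of surfactant and lamellar body genes, with 0 higher. That list is wider than its name and also holds AT2 markers such as *Hc*. The medians of that list, −0.19 and −0.54, lay 0.41 and 0.51 above those of all genes. At matched UMIs they were −0.10 and −0.46 over the same 20 genes. The 0.38 and 0.48 given for all genes there cover only 467 genes, so the list cannot be placed above or below all genes at matched UMIs. The list median in KO turned positive, to 0.22, with TMM factors, as did the one in WT, to 0.06, with at least 3000 UMIs per barcode. The list's summed log2 ratio without *Sftpc* was 0.02 and 0.24.

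*Lcn2*, a secreted iron-carrier protein of the acute-phase response, held 3197 against 1732 CPM in WT and 4668 against 1474 CPM in KO, log2 ratios of 0.88 (0.75 to 1.02) and 1.66 (1.63 to 1.69). It reached 20 or more UMIs per 10000 in 28 of 68 nuclear-RNA-poor and 107 of 423 *Malat1*-rich barcodes in WT, and in 351 of 625 and 1033 of 5576 in KO, and the ranges of the sets overlapped. It is past 2-fold in KO only, and 0 of the 10 secreted acute-phase genes were past 2-fold in both libraries, against 0.875% of all tested genes higher and 32.1% lower. *Wfdc2* was at 0.47 and 0.75. *Fth1*, the ferritin heavy chain, held 4909 against 2533 CPM and 5442 against 2105 CPM, and *Tmsb4x*, thymosin beta 4, 18828 against 10397 CPM and 18327 against 8801 CPM. In KO the mean count per barcode of *Lcn2* was 152% and that of *Fth1* 124% of the *Malat1*-rich mean, against 75.7% and 79.5% in WT. In the cytoskeleton and ferritin list, 20 of 22 genes were above 0 in both libraries, against 18.5% of all tested genes. *Tubb5* (1.40 and 1.07) was the member counted as higher (4.55%, against 0.875% of all tested genes). *Gapdh* was at 0.81 and 1.02, and of 11 glycolysis genes only *Hk2* was lower (9.09%, against 32.1% of all tested genes). Genes of translocation into the endoplasmic reticulum had medians of 0.15 and −0.10, with 0 of 38 past 2-fold in both libraries against 32.1% of all tested genes lower. The small subunit gene *Sec61g* was at 0.97 and 1.22, and *Sec63* at −0.88 and −1.97 and the chaperone gene *Hspa5* at −0.84 and −1.04.

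*Sftpc* was also found in barcodes of other kinds, and the genes beside it are given per *Sftpc* UMI as a description, since *Sftpc* chose the sets. Per 100 *Sftpc* UMIs, *Slc34a2* counted 1.80 in nuclear-RNA-poor and 3.55 in *Malat1*-rich WT barcodes, and 2.86 and 3.58 in endothelial and mesenchymal barcodes of the same library, where *Sftpc* itself was at 288 and 362 CPM. In KO the 4 values were 0.789, 2.84, 2.79 and 3.08, with *Sftpc* at 3237 and 2335 CPM in the other kinds. *Lcn2* per 100 *Sftpc* UMIs was 1.83, 1.31, 3.22 and 22.6 in WT and 1.99, 0.966, 3.43 and 5.63 in KO. The part of free RNA in these values was not tested.

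The club cell gene *Scgb1a1* was among the abundant mRNAs, at 2022 against 3111 CPM in WT and 7326 against 5894 CPM in KO, and the mesenchymal gene *Mgp* was at 1654 against 508 CPM in WT and 560 against 519 CPM in KO. Endothelial markers held 433 against 208 CPM in WT and 46.8 against 31.5 CPM in KO, led by *Calcrl* in WT and *Egfl7* in KO, with *Cldn5* and *Tmem100* counted as higher among 6 tested, against 0.875% of all tested genes. *Cldn5* was at −0.32 and −0.23 at matched UMIs, and *Calcrl* was at 0.93 in WT and −1.91 in KO, the latter from 2 UMIs. *Tie1* and *Ednrb* in WT and *Car4* in KO were at 0 UMIs, beside *Pecam1*, which is at 0 by the rule. Of the 15 macrophage markers, 4 were at 0 UMIs in each library, among them *Marco*, *Mrc1* and *Csf1r* in both. *Chil3* was counted as higher among 6 tested (16.7%, against 0.875% of all tested genes). The sum, 24589 and 36047 CPM, came mostly from *Lyz2*, which AT2 cells express as well. Without *Lyz2* it was 3430 against 2789 CPM in WT and 3944 against 2824 CPM in KO. Most of that remainder was 1 gene, *Cd74*, with 459 of 531 UMIs in WT and 9330 of 9445 in KO, so it is not a measure of macrophage markers in general. Neutrophil markers summed to 21 UMIs in WT and 73 UMIs in KO with *G0s2* leading, and lymphocyte markers to 8 and 69 with *Cd79b* leading and *Cd3d*, *Cd3e* and *Trac* at 0 UMIs in both. Ciliated markers held 90.4 against 175 CPM and 152 against 266 CPM, with 9 of 12 at 0 UMIs in WT, and their median in both libraries changed sign with TMM factors. Summed markers of AT1 cells had log2 ratios of 0.10 in WT and −0.06 in KO, and those of the *Krt8* transitional state −0.18 and −0.02. The genes of those lists counted as lower were *Vegfa* (−1.59 and −1.60) and *Areg* (−2.14 and −1.07). They made up 11.1% of 9 tested AT1 markers and 10% of 10 tested transitional markers, against 32.1% of all tested genes. The part of other cell types in the ratios was not tested.

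The sum of the cycling markers was 930 against 268 CPM in WT and 845 against 273 CPM in KO, mostly *Stmn1*. Without *Stmn1* it was 439 CPM from 68 UMIs against 83.1 CPM in WT and 334 CPM from 799 UMIs against 97.8 CPM in KO. Single barcodes weighed heavily for *Top2a*, which had 7 UMIs in WT with 6 on 1 barcode, and 82 UMIs in KO with 40 on 1 barcode. In KO, *Birc5* had 153 UMIs (log2 ratio 3.47) and *Ube2c* 140 UMIs (2.73). At 1000 UMIs each, these 2 genes were seen in 3.52% and 2.24% of nuclear-RNA-poor and 0.448% and 0.341% of *Malat1*-rich KO barcodes. In WT they had 7 and 28 UMIs, and *Mki67* was at −0.40 there, from 2 UMIs. *Pclaf* had 1 UMI in the nuclear-RNA-poor WT barcodes, or 6.46 CPM (0.164 to 36.0), and 38 UMIs on 24 barcodes in KO, or 15.9 CPM (11.2 to 21.8), against 20 UMIs (8.52 CPM) and 188 UMIs (4.22 CPM) in *Malat1*-rich barcodes.

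**Figure D5:**
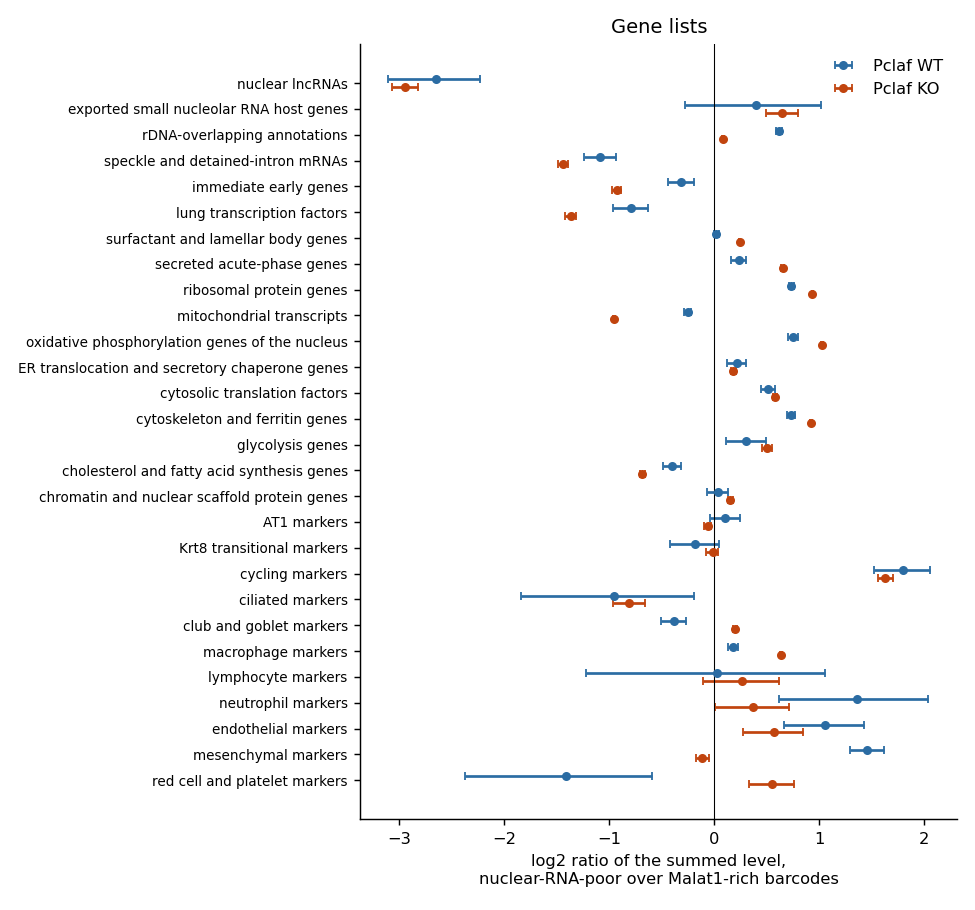
Log2 ratio of the summed CPM, nuclear-RNA-poor over *Malat1*-rich barcodes, for 28 gene lists in *Pclaf* WT (blue) and *Pclaf* KO (red), with 95% counting intervals and without the genes that chose the barcodes. Nuclear lncRNAs lie lowest in both libraries, at −2.65 and −2.95, and ribosomal protein genes at 0.74 and 0.94.

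The 3 transcripts that overlap ribosomal DNA differed among themselves. *Gm42418* held 69344 against 45404 CPM in WT and 65206 against 61869 CPM in KO, and *AY036118* was at 0.98 and 0.78, whereas *Gm26917* was lower, at −1.48 and −2.44. Host genes of small nucleolar RNAs, whose spliced transcripts leave the nucleus, summed to 149 against 113 CPM and 155 against 99.2 CPM. Of these, 3 genes were measured and 0 were past 2-fold in both libraries, against 0.875% of all tested genes higher and 32.1% lower.

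The nuclear-RNA-poor barcodes were not uniform. In KO, 228 of 625 (36.5%, 32.7 to 40.4) held less than 1% mitochondrial UMIs, against 7 of 5576 *Malat1*-rich barcodes (0.126%), while in WT 0 of 68 did, with an exact upper bound of 5.28%. The 228 barcodes held 129 CPM of *Malat1* and 16.2 CPM of *Neat1*, the 157 at 1 to 3% held 294 and 51.7 CPM, and the 240 at 3% or more held 448 and 150 CPM. *Mecom* ran the same way, with 16 UMIs in the first group and 64.7 and 151 CPM in the others, and so did *Slc34a2*, at 755, 2106 and 2545 CPM. *Lcn2* ran in the opposite direction, at 6822, 4185 and 3282 CPM, as did *Sftpc*, at 274292, 236502 and 202210 CPM, and the respiratory chain genes of the nucleus, at 33674, 27236 and 22665 CPM. *Malat1* was at 0 UMIs in 64.9%, 63.7% and 41.3% of the 3 groups, whose median depths were 3257, 2543 and 3513.5 UMIs. In WT, 19 barcodes at 1 to 3% held 53.5 CPM of *Malat1* from 2 UMIs and 49 at 3% or more held 366 CPM, with *Lcn2* at 4576 and 2759 CPM.

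The comparison was repeated at matched depth. *Malat1*-rich barcodes were drawn to match the nuclear-RNA-poor ones in bins of UMIs, 35 of each in WT with medians of 2557 and 2431 UMIs and 503 of each in KO with medians of 3687 and 3603. The summed nuclear lncRNA log2 ratio was −2.60 in WT and −2.93 in KO, and the median of that list −2.07 and −3.14. The ribosomal protein median was then 0.78 and 1.18, and the median of all genes with enough UMIs was 0.38 and 0.48, above 0 in both libraries. At this smaller size 467 genes had enough UMIs, of which 58 were higher and 66 lower in both libraries. Of the 62 genes among them counted as lower without matching, 57 remained lower and 0 turned higher, and of the 12 counted as higher, 8 remained. TMM factors raised every log2 ratio by 0.15 in WT and 0.76 in KO, which made it 262 genes higher and 1244 lower, or 17.4% of called genes higher against 2.65% without them. Restricted to barcodes with at least 1% mitochondrial UMIs, an alternative chosen after seeing the data, 31 genes were higher and 1707 lower, and the summed nuclear lncRNA log2 ratio in KO was −2.44. With at least 3000 UMIs per barcode, 14 WT and 322 KO nuclear-RNA-poor barcodes remained, the numbers were 25 and 1460, and *Chil3* and *Ccl6* in WT were at −0.79 and −1.21 from 1 UMI each, with intervals that span 0.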

How the data were processed

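Per library, 1 matrix of UMI counts was deposited by the authors without normalization, with 98171818 UMIs on 30669 *Pclaf* WT and 111267567 UMIs on 17172 *Pclaf* KO barcodes over 31053 genes. The submitters' notes name Cell Ranger 3.1.0, STAR and GRCm38 (mm10), and the matrix headers name Cell Ranger 5.0.0. Counts were summed over the barcodes of a set in each library. Log2 ratios of CPM have exact conditional intervals for 2 Poisson counts, with 0.5 UMIs added to both sums where one was 0. Shares have Clopper-Pearson intervals. PCR duplicates were collapsed by UMI, and intervals cover counting error only. Thinning to 1000 UMIs and the matched draw used a fixed seed. No doublet caller was run. The limit on *Ptprc* and *Pecam1* removes only doublets with those cells. Named genes were the 15 highest and 15 lowest tested genes by the smaller log2 ratio of the 2 libraries. Also named were *Sftpc*, *Malat1*, *Neat1*, *Pclaf*, and up to 4 genes per list with the most UMIs plus any past 2-fold in both. Others were named after their values were seen, and some list members are not reported here. The barcodes, rule and lists were chosen with earlier results of these data known. Genes were matched to GENCODE M21 by identifier (30934 of 31053). The classes of genomic span and of mitochondrial share were chosen after seeing the data. Ratios were tested on simulated data. Alternatives changed the limits on barcodes and genes, depth, and scaling. Python 3.11.15, scipy 1.17.1, R 4.3.3 and edgeR 4.0.16 (TMM only) were used.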

Additional observations from a re-analysis of the deposited data

Results flagged for a closer look

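Among the marker lists, 3 had summed log2 ratios of opposite sign in the libraries, with 1 counting interval above 0 and the other below, and none of these differences was tested. Mesenchymal markers were at 1.46 in *Pclaf* WT and −0.11 in *Pclaf* KO. *Mgp*, the list's most abundant gene, held 1654 against 508 CPM in WT, with 27.7% of its nuclear-RNA-poor UMIs on 1 barcode, and 560 against 519 CPM in KO, with 50.7% on 1 barcode. Club and goblet markers were at −0.39 in WT and 0.20 in KO, led by *Scgb1a1*, of which 50.9% of the *Malat1*-rich WT UMIs lay on 1 barcode. Red cell and platelet markers were at −1.41 in WT, from 12 UMIs in the nuclear-RNA-poor barcodes, and 0.55 in KO, from 198 UMIs. In WT, 71.1% of the *Malat1*-rich *Hbb-bs* UMIs lay on 1 barcode. *Fmo2*, a flavin monooxygenase, had log2 ratios of 1.37 in WT and −1.12 in KO, and *Parp9* of 1.03 in WT, from 7 UMIs with an interval that spans 0 (−0.35 to 2.17), and −1.40 in KO. These differences were not tested either.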

How the results depend on the processing

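With *Malat1* below 5 per 10000, nuclear-RNA-poor barcodes were 9.39% of *Sftpc*-high barcodes in WT and 7.11% in KO, 106 genes were higher, and the summed nuclear lncRNA log2 ratio was −3.28 and −3.74. With at least 3000 UMIs these were 3.11% and 5.06%, 25 genes, and −1.84 and −2.68, and in WT *Chil3* (−0.79), *Ccl6* (−1.21) and the medians of immediate early genes (0.17), macrophage (−0.35) and ciliated markers (0.45) and surfactant genes (0.06) changed sign. In KO the share was 10.3% with *Sftpc* at 10% or more and 10.1% with a mitochondrial limit of 10%, which left 32 genes higher. At 1% mitochondrial UMIs or more, chosen after seeing the data, it was 5.98%, with 31 genes higher and a nuclear log2 ratio of −2.44. Thinned to 1000 UMIs, 478 of 1326 genes were lower, the nuclear log2 ratio was −3.13 and −3.65, and the lymphocyte median in KO was −0.10. At matched UMIs, 66 of 467 were lower, *Cldn5* was at −0.32 and −0.23, and the WT medians of lymphocyte and red cell markers were −0.32 and 1.68. Without *Sftpc*, mitochondrial and ribosomal protein genes in the denominator, 191 genes were higher and the nuclear log2 ratio in KO was −2.70. With TMM factors 262 were higher, 1244 lower, and it was −2.18. With at least 200 UMIs per gene, 26 of 1790 were higher and 607 lower. The ciliated median, over 3 genes, also changed sign in WT with *Malat1* at 50 or more in the comparison (0.13), without the limit on *Ptprc* and *Pecam1* (0.0011), with the other denominator (0.072) and with TMM factors (0.056, and 0.44 in KO). Without the limit on *Ptprc* and *Pecam1*, *Chil3* and *Cldn5* in KO were at −0.21 and −0.31. The causes were not tested. Of the genes counted as higher or lower that had enough UMIs in a setting, 0 were counted in the opposite direction there, although only 12 of 52 and 62 of 1907 had enough at matched UMIs and 23 and 412 when thinned. Many of the higher genes fell below 2-fold, with 18 of 49 still higher at 3000 UMIs, 27 of 52 at 1% mitochondrial UMIs or more, 28 of 52 without the limit on *Ptprc* and *Pecam1*, 29 of 50 with the mitochondrial limit of 10% and 30 of 49 with *Sftpc* at 10% or more. No paired analysis was possible because each genotype has 1 library, and for the same reason no library could be left out. Counts limit the WT values, where 270 tested genes were at 0 UMIs in the nuclear-RNA-poor barcodes.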
